A study of Mus musculus with 24 samples.

Results

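The bone morphogenetic protein (BMP) genes described here are 10 genes of the mouse plantaris, a fast ankle extensor of the hindlimb. They are the ligands Bmp4, Bmp6, Gdf5 and Gdf6, the secreted antagonists Grem1 and Nog, the type I receptor Bmpr1a, and the target genes Id1, Id2 and Id3. The members were chosen by symbol for their role, with earlier results of these data known. Each had 1 probe set with that symbol alone. All 10 were on the array and all 10 passed the intensity filter, among 14499 genes tested of 19937 named genes.

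RNA was measured on 24 whole-transcript arrays, 1 muscle per array, in 4 groups of 6 biological replicates. The groups were Mstn-/- mice with overload of the plantaris, untreated Mstn-/- mice, wildtype mice with overload and untreated wildtype mice, all aged 3 months per the labels. Mstn-/- mice carry a knockout of myostatin, a secreted member of the TGF-beta family that restrains muscle growth. Overload was made in both legs, under pentobarbitone at 50 mg/kg, by taking out the soleus and a large part of the gastrocnemius, and the untreated animals had no sham operation. The effect of overload therefore includes that of the operation, and these cannot be told apart. The sources used here do not give how long overload lasted, the kind of deletion or the strain. The title of the series names extracellular matrix remodelling and muscle force as its question.

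BMP ligands are secreted dimers that assemble type I and type II receptors, which phosphorylate SMAD1, SMAD5 and SMAD9. These join SMAD4, enter the nucleus and switch on genes, of which the Id genes are the best known. Antagonists such as Noggin and Gremlin bind the ligands outside the cell. In skeletal muscle, BMP signalling is known to favour muscle mass, in opposition to myostatin, whose signal runs through SMAD2 and SMAD3 and shares SMAD4 and the type II receptors. Id proteins are helix-loop-helix proteins without a DNA-binding region. They pair with E proteins and so hold back myogenic factors such as MyoD.

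Array medians ran from 139 to 147 in intensity, and differences between groups had a median standard error of 0.067 on the log2 scale. Low limma array weights were found for 3 arrays, wildtype overload replicates 3 and 4 and untreated wildtype replicate 1, with 0.391, 0.387 and 0.438, and results that change without them are given with and without them. All 8 myofibre markers were above the filter level in every group. Mstn itself had a lowest, median and highest intensity of 370, 467 and 646 in untreated Mstn-/- muscle, against 1099, 1235 and 1351 in untreated wildtype muscle. It was 2.51-fold lower in untreated Mstn-/- muscle (adjusted p = 2.72e-08), with no overlap between the groups. Whether its probe set lies inside the deleted part is not given, so this check of the labels is partial. Under overload Mstn fell 1.60-fold in Mstn-/- and 3.62-fold in wildtype muscle, and the overloaded genotypes did not differ past the threshold (log2 difference -0.15, adjusted p = 0.39).

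Under overload the ligands Bmp4 and Bmp6 and the Id targets changed in opposite directions. In both genotypes both ligands fell by 1.34-fold to 1.55-fold, Id2 had the largest rise of the 10 genes and Id3 rose with it. Id1 rose in Mstn-/- muscle, whereas its difference in wildtype muscle did not pass the threshold. The low-intensity ligands and antagonists (Gdf5, Gdf6, Grem1, Nog) changed little or not past the threshold. In Mstn-/- muscle 3 members rose and 3 fell at an adjusted p below 0.05, where 27.1% of all genes tested rose and 33.5% fell. In wildtype muscle 2 rose and 4 fell, where 30.3% of all genes rose and 35.6% fell. The member counts (6 of 10 in each genotype) are near these backgrounds of 60.6% and 65.9% called in either direction. After a shift of all arrays to a common median, the split over all genes in Mstn-/- muscle was 3295 higher and 6767 lower, in place of 3932 and 4857 as deposited. In wildtype muscle it was 3792 higher and 6697 lower, in place of 4396 and 5164. The median log2 change of the 10 members was -0.07 in Mstn-/- and -0.02 in wildtype muscle, beside -0.06 and -0.06 over all genes tested. Both comparisons are of whole muscle, in which fewer cells of a type and less RNA per cell cannot be told apart.

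**Figure D1:**
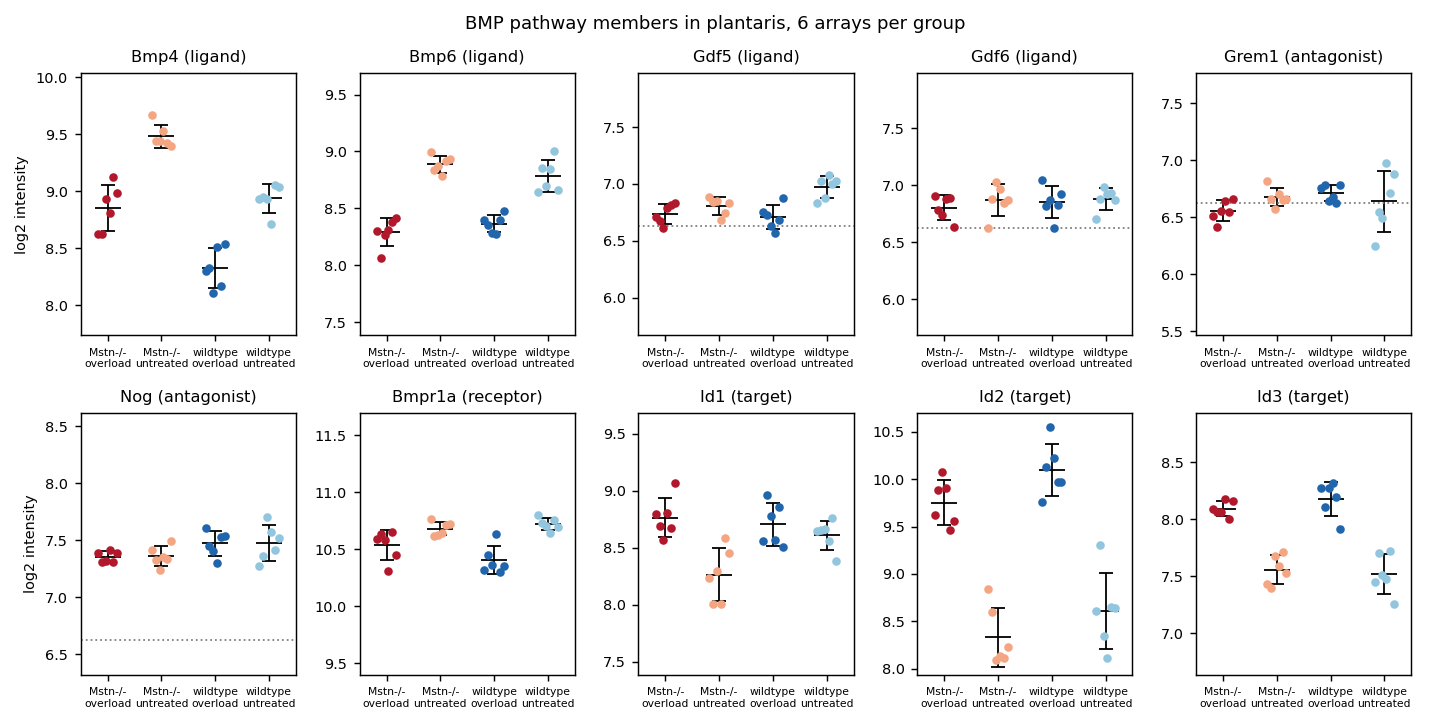
Log2 intensity of each of the 10 genes on each of the 24 arrays (points), with group mean and SD (bars), for Mstn-/- overload, Mstn-/- untreated, wildtype overload and wildtype untreated muscle. The dotted line marks the filter level (log2 intensity 6.63), near which Gdf5, Gdf6 and Grem1 lie, while Bmp4 separates the genotypes within each condition and Id2 and Id3 separate overloaded from untreated arrays.

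Bmp4, a ligand that signals through BMPR1A and is a target of Gremlin and Noggin, had the clearest genotype difference of the 10 genes. Its lowest, median and highest intensity was 395, 469 and 558 in overloaded Mstn-/- muscle, against 674, 695 and 813 in untreated Mstn-/- muscle. In wildtype muscle it was 275, 318 and 371 under overload, against 418, 493 and 531 without. Within each genotype every overloaded array lay below every untreated array. Within each condition every Mstn-/- array lay above every wildtype array. Overload lowered Bmp4 by 1.55-fold in Mstn-/- muscle (log2 difference -0.63 ± 0.09 SE, adjusted p = 5.52e-07) and by 1.53-fold in wildtype muscle (-0.61 ± 0.09 SE, adjusted p = 5.51e-07). The difference between these responses was -0.02, with a 95% confidence interval from -0.27 to 0.23 and an adjusted p of 0.944.

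The genotype difference of Bmp4 was of similar size with and without overload. Bmp4 was 1.46-fold higher in Mstn-/- than in wildtype untreated muscle (log2 difference 0.55 ± 0.09 SE, adjusted p = 3.88e-05). It was 1.44-fold higher in Mstn-/- than in wildtype overloaded muscle (0.53 ± 0.09 SE, adjusted p = 2.82e-05). Ordered by level, untreated Mstn-/- muscle came first, untreated wildtype and overloaded Mstn-/- muscle were next and did not differ past the threshold (log2 difference 0.08, adjusted p = 0.387), and overloaded wildtype muscle was last.

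Bmp6, a ligand known above all as the liver signal that sets hepcidin and iron uptake, fell under overload in both genotypes, and its genotype differences did not pass the threshold. On Mstn-/- arrays its lowest, median and highest intensity was 268, 317 and 341 in overloaded Mstn-/- muscle, against 441, 476 and 509.7 in untreated Mstn-/- muscle. The wildtype values were 311, 332 and 356 under overload, against 401, 439 and 514 without. Overloaded and untreated arrays did not overlap in either genotype, and the genotypes overlapped in both conditions. Bmp6 fell 1.51-fold in Mstn-/- muscle (log2 difference -0.60 ± 0.06 SE, adjusted p = 8.76e-09) and 1.34-fold in wildtype muscle (-0.42 ± 0.06 SE, adjusted p = 1.47e-06). The fall was larger by 0.18 in Mstn-/- muscle on the log2 scale, which did not pass the threshold (adjusted p = 0.185, 95% confidence interval -0.36 to 0.01). Between genotypes Bmp6 differed by 0.10 without overload and by -0.07 under overload (Mstn-/- minus wildtype, adjusted p = 0.27 and 0.38).

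Gdf5 and Gdf6 are closely related ligands known from joint formation, and Gdf5 is known to be induced in denervated muscle, where it limits atrophy. Both lay close to the filter level of 98.9, at which a fold change is uncertain in size. Gdf5 intensity ran from 98.0 to 114 in overloaded Mstn-/- muscle, against 103 to 118 in untreated Mstn-/- muscle, and from 94.9 to 118 in overloaded wildtype muscle, against 114 to 135 in untreated wildtype muscle. Untreated wildtype replicates 2, 4, 5 and 6 were the highest of the 24 arrays, the other two untreated wildtype arrays lay among those of other groups, and 5 of 6 overloaded wildtype arrays lay below all untreated wildtype arrays. Overload lowered Gdf5 by 1.20-fold in wildtype muscle (log2 difference -0.26 ± 0.06 SE, adjusted p = 0.00019). In Mstn-/- muscle the difference was -0.07 ± 0.06 SE (adjusted p = 0.293), which passed only after a shift of all arrays to a common median (-0.13, adjusted p = 0.0373). The difference between responses, 0.20 ± 0.08 SE, did not pass the threshold (adjusted p = 0.0935) except under quantile normalization (0.0404) and without wildtype overload replicate 6 (0.0393). Without overload Gdf5 was 1.12-fold lower in Mstn-/- than in wildtype muscle (adjusted p = 0.0363), a call that was lost after a shift of all arrays to a common median (adjusted p = 0.0716) and without a filter (0.0508). It was also lost without untreated Mstn-/- replicate 4 or 5 or untreated wildtype replicate 2, 4, 5 or 6, with adjusted p up to 0.0939. Gdf6 had group geometric means of 112 in overloaded and 117 in untreated Mstn-/- muscle, and of 115 in overloaded and 118 in untreated wildtype muscle. None of its 5 comparisons passed the threshold, none had an unadjusted p below 0.05 in limma, and its groups overlapped throughout.

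The promoter windows of the ligands and Id genes that fell or rose in both genotypes are shown because SMAD complexes and E-box binding factors act on such windows. RefSeq windows of 250 bases before the gene start were matched for 6 of the 10 genes (Bmp4, Bmp6, Grem1, Bmpr1a, Id2, Id3), on mouse build GRCm38.p6. They were searched on both strands for GGCGCC, a GC-rich element bound by SMAD1 and SMAD5, for CAGAC or its reverse complement GTCTG, the SMAD4 element, and for the E-box CAGCTG. Matches are in capitals, and each sequence runs 5′ to 3′ in the direction of the gene, ending at the base before its start. The windows are chr14:46390670-46390919, minus strand, for Bmp4, chr13:38345466-38345715, plus strand, for Bmp6, chr12:25096093-25096342, minus strand, for Id2, and chr4:136143572-136143821, plus strand, for Id3.
Bmp4: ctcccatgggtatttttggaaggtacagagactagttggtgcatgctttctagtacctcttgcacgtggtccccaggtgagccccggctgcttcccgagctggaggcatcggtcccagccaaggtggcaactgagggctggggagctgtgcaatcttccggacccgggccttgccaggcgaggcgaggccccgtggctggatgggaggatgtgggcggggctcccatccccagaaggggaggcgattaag
Bmp6: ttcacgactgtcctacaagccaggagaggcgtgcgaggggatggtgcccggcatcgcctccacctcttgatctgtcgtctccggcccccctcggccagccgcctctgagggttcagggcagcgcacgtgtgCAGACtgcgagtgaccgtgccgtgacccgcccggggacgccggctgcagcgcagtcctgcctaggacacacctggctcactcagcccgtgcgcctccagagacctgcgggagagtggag
Id2: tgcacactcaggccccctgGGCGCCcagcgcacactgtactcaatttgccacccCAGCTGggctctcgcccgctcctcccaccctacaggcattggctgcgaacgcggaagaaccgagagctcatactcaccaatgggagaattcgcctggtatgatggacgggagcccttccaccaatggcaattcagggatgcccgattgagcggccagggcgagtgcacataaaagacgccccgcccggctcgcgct
Id3: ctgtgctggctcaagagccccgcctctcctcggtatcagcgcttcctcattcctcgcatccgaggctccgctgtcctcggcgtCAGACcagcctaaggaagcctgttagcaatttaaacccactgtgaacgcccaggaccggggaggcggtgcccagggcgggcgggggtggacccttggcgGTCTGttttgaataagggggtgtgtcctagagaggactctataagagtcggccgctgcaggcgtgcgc

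The Bmp4 window held none of these letters, and the Bmp6 window held CAGAC starting 119 bases before the gene start. In Id2, GGCGCC stood 231 bases and CAGCTG 196 bases before the start, and Id3 held CAGAC at 167 and GTCTG at 68 bases before it. The matched windows that are not printed held GGCGCC too, Bmpr1a at 198 and Grem1 at 78 bases before the start. Grem1 also held CAGAC at 219 bases before it. Of 32841 windows of the same length in the RefSeq table, 9.59% held GGCGCC, 42.2% held CAGAC or GTCTG and 13.0% held CAGCTG. The 4 windows had a GC content of 63.2%, 68.8%, 62.8% and 62.8% in the order printed, against a median of 52.4% over all windows. These are matches of letters in 1 window per gene, and no binding was measured.

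The antagonists Grem1 and Nog did not change past the threshold in any of the 5 comparisons. Grem1, which encodes Gremlin, had a lowest, median and highest intensity of 85.4, 93.8 and 101 in overloaded Mstn-/- muscle, below the filter level on average, against 95.1, 101 and 113 in untreated Mstn-/- muscle. Wildtype arrays gave 98.9, 105 and 110.1 under overload, against 76.2, 99.0 and 126 without. The untreated wildtype arrays spread the most, and overloaded and untreated arrays overlapped in both genotypes. The overload difference of Grem1 was -0.12 in Mstn-/- (adjusted p = 0.212) and 0.07 in wildtype muscle (adjusted p = 0.462). After a shift of all arrays to a common median the Mstn-/- difference became -0.18 and passed (adjusted p = 0.0435).

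Nog, which encodes Noggin, lay above the filter level in every group, with geometric means of 164 in overloaded and 165 in untreated Mstn-/- muscle, and of 178 in both overloaded and untreated wildtype muscle. Its overload differences were -0.01 in Mstn-/- muscle, with a 95% confidence interval from -0.14 to 0.12, and -0.00 in wildtype muscle, with an interval from -0.13 to 0.13. Nog was lower in Mstn-/- than in wildtype muscle by 0.11 without overload (log2, adjusted p = 0.226) and by 0.12 under overload (adjusted p = 0.149), neither past the threshold. Without the 3 arrays of low weight the same differences were -0.15 (adjusted p = 0.0467) and -0.18 (adjusted p = 0.0215), and both passed.

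Bmpr1a, the type I receptor also called ALK3 through which BMP2 and BMP4 signal, fell modestly under overload. Its lowest, median and highest intensity was 1272, 1537 and 1609 in overloaded Mstn-/- muscle, against 1573, 1640.3 and 1738 in untreated Mstn-/- muscle. For wildtype muscle the values were 1261, 1314 and 1589 under overload, against 1603, 1682 and 1784 without. The wildtype groups did not overlap, and 4 of 6 overloaded Mstn-/- arrays lay below all untreated Mstn-/- arrays. The fall was 1.11-fold in Mstn-/- muscle (log2 difference -0.15 ± 0.06 SE, adjusted p = 0.0348) and 1.25-fold in wildtype muscle (-0.32 ± 0.06 SE, adjusted p = 3.26e-05). The Mstn-/- call was lost under another quantile normalization (adjusted p = 0.105) and when any 1 of 5 Mstn-/- arrays was left out (overload replicates 4 and 6, untreated replicates 1, 5 and 6), with the highest adjusted p, 0.12, without overload replicate 4. The difference between the responses was 0.17 (adjusted p = 0.163), and the overloaded genotypes differed by 0.13 (adjusted p = 0.0812). Without the 3 arrays of low weight this last difference was 0.18 and passed (adjusted p = 0.0178). Both also passed without Mstn-/- overload replicate 4 (adjusted p = 0.0497 and 0.0142) or wildtype overload replicate 4 (0.0412 and 0.0112).

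Among the targets, Id2 had the largest change of the 10 genes. Intensities (lowest, median and highest) were 706, 866 and 1079 in overloaded Mstn-/- muscle, against 272, 291 and 458 in untreated Mstn-/- muscle. Wildtype muscle had 867, 1059 and 1501 under overload, against 276, 394 and 634 without. The lowest overloaded array lay above the highest untreated array in both genotypes, although the untreated arrays themselves spread widely. Id2 rose 2.67-fold in Mstn-/- muscle (log2 difference 1.42 ± 0.16 SE, adjusted p = 3.98e-08) and 2.81-fold in wildtype muscle (1.49 ± 0.16 SE, adjusted p = 8.9e-09). The responses differed by -0.07, with a 95% confidence interval from -0.54 to 0.40 (adjusted p = 0.885). Between genotypes Id2 differed by -0.28 without overload (adjusted p = 0.249) and by -0.35 under overload (Mstn-/- minus wildtype, adjusted p = 0.097), neither past the threshold.

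Id3 rose in parallel and with less spread. Lowest, median and highest values were 257, 270.0 and 289.9 in overloaded Mstn-/- muscle, against 169, 189 and 209.8 in untreated Mstn-/- muscle. In wildtype muscle it was 241, 301 and 319 under overload, against 153, 179.9 and 211 without. Overloaded and untreated arrays did not overlap in either genotype, and the genotypes overlapped in both conditions. Id3 rose 1.45-fold in Mstn-/- muscle (log2 difference 0.54 ± 0.08 SE, adjusted p = 1.06e-06) and 1.58-fold in wildtype muscle (0.66 ± 0.08 SE, adjusted p = 2.14e-08). The responses differed by -0.12 (adjusted p = 0.492).

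Id1, the Id gene most often used to read BMP activity, rose under overload in Mstn-/- muscle. Its lowest, median and highest intensity was 379, 427 and 536 in overloaded Mstn-/- muscle, against 257, 307 and 385 in untreated Mstn-/- muscle. The wildtype arrays ran at 364, 409 and 497 under overload, against 334, 401 and 434 without. In Mstn-/- muscle 5 of 6 overloaded arrays lay above all untreated arrays, while 3 of 6 did so in wildtype muscle. Id1 rose 1.42-fold in Mstn-/- muscle (log2 difference 0.50 ± 0.10 SE, adjusted p = 0.000102), and in wildtype muscle the difference was 0.09 ± 0.10 SE (adjusted p = 0.406). The difference between the responses, 0.41 ± 0.14 SE, narrowly passed the threshold (adjusted p = 0.0446), where 8.92% of all genes tested passed in this direction, 8.44% in the opposite one and 17.4% in either. It was the 1 member of 10 to pass. It no longer passed without the filter (adjusted p = 0.0601), under quantile normalization (0.0538), with array weights (0.0761), without the 3 arrays of low weight (0.108) or when any 1 of 15 of the 24 arrays was left out. These were overload replicates 1, 4 and 6 and untreated replicates 1 to 4 of Mstn-/- mice, and overload replicates 1, 4 and 6 and untreated replicates 1 to 5 of wildtype mice, with the highest adjusted p, 0.0867, without Mstn-/- overload replicate 6. Its size stayed between 0.35 and 0.47 when single arrays were left out.

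The genotype difference of Id1 passed the threshold in untreated muscle. Untreated Mstn-/- muscle had 1.27-fold less Id1 than untreated wildtype muscle (log2 difference -0.35 ± 0.10 SE, adjusted p = 0.0128), with 4 of 6 Mstn-/- arrays below all wildtype arrays. Under overload the difference was 0.06, with a 95% confidence interval from -0.14 to 0.26 (adjusted p = 0.668). Ordered by level, overloaded Mstn-/-, overloaded wildtype and untreated wildtype muscle did not differ between neighbours past the threshold, and untreated Mstn-/- muscle lay below them.

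**Figure D2:**
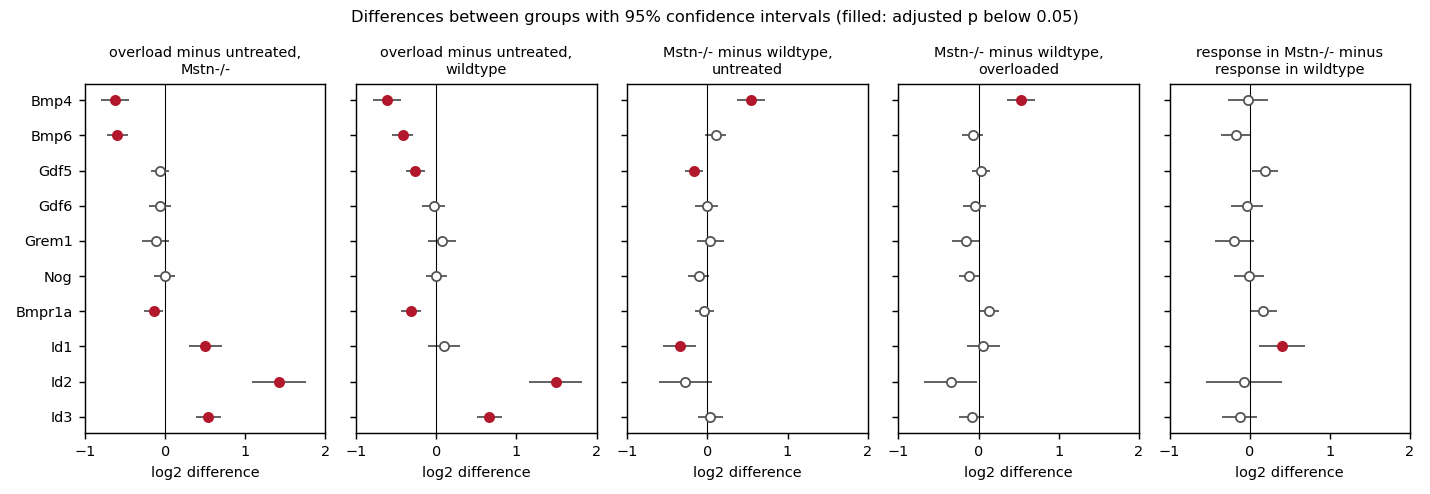
Log2 differences of the 10 genes (points) with 95% confidence intervals (lines) for overload minus untreated in Mstn-/- and in wildtype muscle, Mstn-/- minus wildtype untreated and overloaded, and the difference between the responses; filled points have an adjusted p below 0.05. Bmp4 and Bmp6 lie left of 0 and Id2 and Id3 right of 0 in both overload panels, and Bmp4 alone is filled and above 0 in both genotype panels.

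Counted over the members, the genotype comparisons held few calls. Without overload 1 of 10 was higher in Mstn-/- muscle (Bmp4) and 2 were lower (Gdf5, Id1), where 11.1% and 10.2% of all genes tested were called in these directions, 21.3% together. After a shift of all arrays to a common median, the split over all genes was 1859 higher and 1100 lower, in place of 1616 and 1475 as deposited. Under overload 1 of 10 was higher in Mstn-/- muscle (Bmp4) and none was called lower in limma, while 3 of 10 had an unadjusted p below 0.05 (2 higher, 1 lower). The share of all genes at that unadjusted threshold was not counted, and it cannot be below the 36.5% called at an adjusted p. Of all genes, 17.5% were called higher and 19% lower in this comparison, 36.5% together, and the split of 2540 higher and 2753 lower turned to 2779 higher and 2206 lower after a shift to a common median. Groups that did not overlap were found for 2 members higher and 2 lower under overload in Mstn-/- muscle (19.8% and 20.1% of all genes, 39.9% together) and for 2 higher and 3 lower in wildtype muscle (21.8% and 21.1%, 43% together). Between genotypes Bmp4 was the member without overlap, in untreated muscle and in overloaded muscle. Of all genes, 6.53% were higher and 5.47% lower without overlap in untreated muscle (12% together), and 7.06% and 8.46% in overloaded muscle (15.5% together). Both overload and genotype comparisons reuse the same 4 groups of arrays, so they are not independent of each other.

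Around the 10 genes, the other ligands showed no common direction under overload. Of 8 other ligand genes tested, 2 rose and 4 fell in overloaded Mstn-/- muscle, and 3 fell and 5 did not pass in overloaded wildtype muscle. Of all genes tested, 27.1% rose and 33.5% fell in Mstn-/- muscle, and 30.3% rose and 35.6% fell in wildtype muscle. These shares stand beside the overload counts of each list below, markers included. Bmp7, a ligand of kidney and bone, fell 1.26-fold in Mstn-/- (adjusted p = 0.00102) and 1.54-fold in wildtype muscle (adjusted p = 2.8e-07). Bmp2, named here after its values were seen, had geometric means of 144 in overloaded and 169 in untreated Mstn-/- muscle. In wildtype muscle they were 107 and 128 in the same order, so that its means differed in the same directions as those of Bmp4. Between genotypes, 1 of the 8 was higher and 1 lower in untreated Mstn-/- muscle. The lower one, Bmp7, lost its call after a shift to a common median (adjusted p = 0.0562). In overloaded Mstn-/- muscle 1 was higher, and 3 were higher after that shift. Of all genes, 11.1% were higher and 10.2% lower in untreated Mstn-/- muscle, and 17.5% and 19% in overloaded Mstn-/- muscle. Bmp10, Bmp15 and Gdf2 did not pass the filter.

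Receptors split as well. Of 11 other receptor and co-receptor genes, 4 rose and 6 fell in Mstn-/- muscle under overload, and 4 rose and 5 fell in wildtype muscle. Hjv, a BMP co-receptor of skeletal muscle, fell 1.41-fold in Mstn-/- muscle (adjusted p = 3.67e-05) and 1.82-fold in wildtype muscle (adjusted p = 3.36e-09). Eng, a co-receptor of endothelial cells, rose 1.67-fold in Mstn-/- and 1.5-fold in wildtype muscle (adjusted p = 8.3e-09 and 2.14e-07). Acvr2b, a type II receptor that myostatin also uses, fell 1.57-fold in Mstn-/- and 1.60-fold in wildtype muscle (adjusted p = 1.82e-09 and 3.55e-10). Its relative Acvr2a fell 1.54-fold in Mstn-/- muscle (adjusted p = 1.15e-08), and in wildtype muscle its difference of -0.14 did not pass (adjusted p = 0.0713) except under quantile normalization (0.0169) or after a shift to a common median (0.012). Acvr2a was also 1.53-fold higher in untreated Mstn-/- than in untreated wildtype muscle (adjusted p = 1.78e-07).

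The largest changes of the pathway under overload lay outside the 10 genes, among the other extracellular modulators. Of 17 such genes 9 rose and 1 fell in Mstn-/- muscle, where 27.1% of all genes tested rose and 33.5% fell. In wildtype muscle 11 rose and 3 fell, where 30.3% of all genes rose and 35.6% fell. After a shift of all arrays to a common median, 8 rose and 4 fell in Mstn-/- muscle. Fstl1, a secreted follistatin-like glycoprotein that binds BMP4, rose 5.41-fold in Mstn-/- and 6.89-fold in wildtype muscle (adjusted p = 2.09e-14 and 4.76e-16). Bmp1, which despite its name is a protease that cleaves procollagen and the antagonist Chordin, rose 2.50-fold in Mstn-/- and 3.77-fold in wildtype muscle (adjusted p = 2.77e-12 and 1.36e-15). Htra1, a secreted serine protease, rose 2.79-fold in Mstn-/- and 3.14-fold in wildtype muscle (adjusted p = 9.51e-12 and 4.81e-13). Tll1, a protease of the Bmp1 family, rose 1.75-fold and 2.36-fold, with both untreated means below the filter level, so that the size is uncertain. Between overloaded genotypes 1 of the 17 was higher and 9 were lower in Mstn-/- muscle, Fstl1 by 1.61-fold (adjusted p = 5.65e-05) and Bmp1 by 1.53-fold (adjusted p = 5.32e-06). Of all genes tested, 17.5% were higher and 19% lower in this comparison. In the same comparison 7 of 10 markers of fibro-adipogenic progenitors (5 of 10 after a shift to a common median) and 7 of 8 tenocyte markers were lower in Mstn-/- muscle, and their part in the modulators' difference was not tested.

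Inside the cell, Smad1, the transducer of BMP receptors, rose 1.31-fold in Mstn-/- and 1.58-fold in wildtype muscle under overload (adjusted p = 2.58e-07 and 9.56e-12). Of the 9 transducer and inhibitor genes that include it, 2 rose and 4 fell in Mstn-/- muscle, and 5 rose and 2 fell in wildtype muscle. After a shift of all arrays to a common median, 1 rose and 4 fell in Mstn-/- muscle, and 4 rose and 3 fell in wildtype muscle. Of 7 other BMP-responsive genes tested, 2 rose and 3 fell in Mstn-/- muscle, and 1 rose and 2 fell in wildtype muscle. With the same shift 2 rose and 4 fell in Mstn-/- muscle, and 1 rose and 3 fell in wildtype muscle. Smad6 and Smad7 belong to both lists. The median log2 change of the responsive genes was -0.10 in Mstn-/- and -0.06 in wildtype muscle. Fbxo30, a ubiquitin ligase that BMP signalling is known to repress in muscle, differed by -0.01 in Mstn-/- (adjusted p = 0.892) and by -0.15 in wildtype muscle (adjusted p = 0.0584). In wildtype muscle it passed as lower under quantile normalization (-0.20, adjusted p = 0.00787) and after a shift to a common median (-0.22, adjusted p = 0.0116).

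Id proteins act by pairing with E proteins, and these rose too. All 3 E protein genes rose in both genotypes, Tcf4 by 1.55-fold in Mstn-/- and by 1.55-fold in wildtype muscle (adjusted p = 4.64e-11 and 1.8e-11) and Tcf12 by 1.31-fold and 1.45-fold in the same order. Tcf3 rose in wildtype muscle by 1.32-fold (adjusted p = 1.26e-07) and in Mstn-/- muscle by 1.09-fold (0.0343), and its Mstn-/- call was lost under quantile normalization (0.217) and after a shift to a common median (0.256). Of the 4 myogenic factors, 2 rose and 1 fell in Mstn-/- muscle, and 1 rose and 1 fell in wildtype muscle. Myog, the myogenic factor of differentiating muscle cells, rose 2.38-fold in Mstn-/- muscle, where its untreated mean was below the filter level, and 2.09-fold in wildtype muscle (adjusted p = 2.6e-11 and 1.86e-10).

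**Figure D3:**
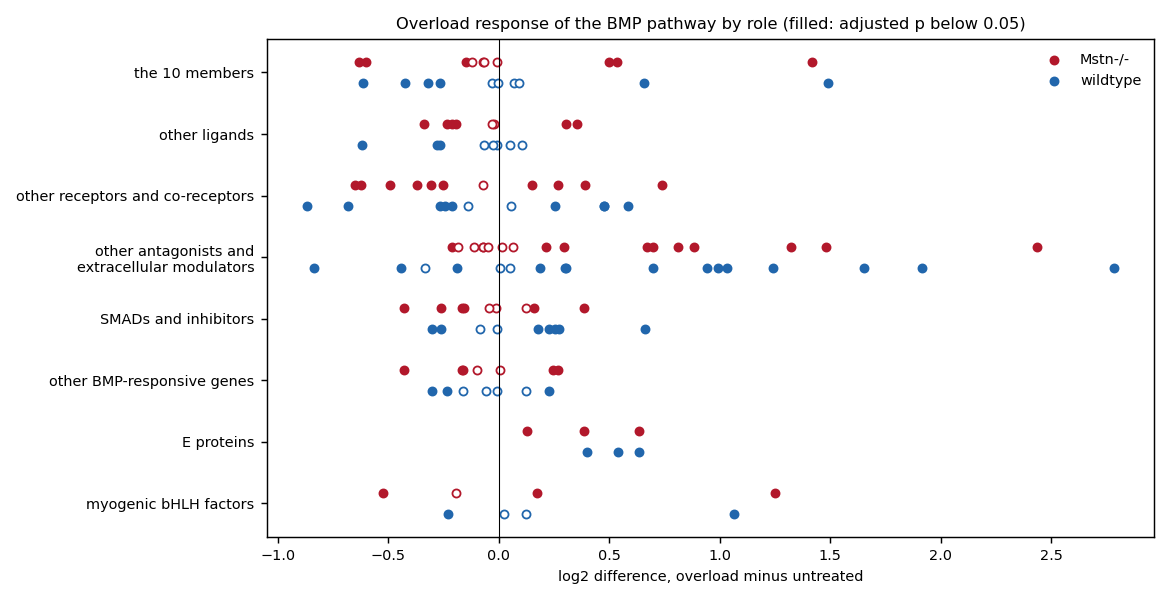
Log2 difference, overload minus untreated, of each gene by role, in Mstn-/- (red, upper row of each role) and wildtype muscle (blue, lower row); filled points have an adjusted p below 0.05. The antagonist and modulator row reaches furthest right, to 2.78 for Fstl1 in wildtype muscle, while the other ligands lie between -0.62 and 0.35.

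Markers of cells other than myofibres and markers of denervation moved with overload, beside the rise of Id2 and Id3 and of the modulators. The 10 macrophage markers rose in both genotypes (10 of 10 in each), and their summed intensity was 9509 to 17658 in overloaded and 3844 to 5009 in untreated Mstn-/- muscle, and 13753 to 19992 in overloaded and 2610.2 to 3599.7 in untreated wildtype muscle. Of 10 markers of fibro-adipogenic progenitors 8 rose in Mstn-/- and 10 in wildtype muscle, with sums of 29812 to 36014 in overloaded and 15963 to 20149 in untreated Mstn-/- muscle, and of 42101 to 49964 in overloaded and 14562 to 19206 in untreated wildtype muscle. Of 10 endothelial markers 9 rose in each genotype, with sums of 8474 to 9878 in overloaded and 5719.8 to 6674 in untreated Mstn-/- muscle, and of 7885 to 10021 in overloaded and 6055 to 7483 in untreated wildtype muscle. Of 8 tenocyte markers 7 rose in each genotype, and 1 fell in wildtype muscle, with sums of 15813 to 19397 in overloaded and 6953 to 10098 in untreated Mstn-/- muscle, and of 22675 to 28956 in overloaded and 7797 to 14483 in untreated wildtype muscle. Of 8 smooth muscle and pericyte markers 6 rose in Mstn-/- and 5 in wildtype muscle, and of 9 denervation markers tested 8 rose and 1 fell in Mstn-/- muscle and 6 rose and 2 fell in wildtype muscle. Of 8 myofibre markers 5 fell in each genotype and 1 rose in wildtype muscle, with sums of 88026 to 93856 in overloaded and 93352 to 99128 in untreated Mstn-/- muscle, and of 66957 to 80606 in overloaded and 91608 to 93082 in untreated wildtype muscle. Markers of satellite cells (4 and 3 of 7 higher in Mstn-/- and wildtype muscle), Schwann cells (1 of 5 in each) and cartilage and bone (3 of 4 in each) moved less uniformly, and 1 satellite cell marker and 1 cartilage and bone marker fell in each genotype. With all arrays shifted to a common median, 7 fibro-adipogenic, 8 endothelial and 7 denervation markers rose in Mstn-/- muscle. In wildtype muscle 7 endothelial and 0 myofibre markers then rose. With that shift 1 Schwann cell marker fell in each genotype. Between genotypes, 7 of 8 tenocyte markers were also lower and 4 of 10 macrophage markers higher in Mstn-/- than in wildtype untreated muscle, and 3 of 10 macrophage markers were lower in Mstn-/- than in wildtype overloaded muscle. Of 10 endothelial markers 4 were lower and 1 higher in untreated Mstn-/- muscle. In overloaded Mstn-/- muscle 5 of 8 myofibre markers were higher and 1 lower, and 5 of 9 denervation markers were higher and 2 lower. Of all genes tested, 11.1% were higher and 10.2% lower in untreated Mstn-/- muscle, and 17.5% and 19% in overloaded Mstn-/- muscle. The markers with a mean below the filter level in at least 1 group were Calcr, Dach2, Acan, Matn1 and Ibsp. The part of these cells and of denervation in the changes of the 10 genes was not tested.

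Called changes of at least 1.5-fold between 2 groups were found for 4 of the 10 genes. The share of all genes past this cut was not counted, so the 4 serve only as a choice of genes. For each of these 4, the genes with the most similar profile were sought among 13866 tested genes over the 24 arrays. Similarity was the root mean square difference of log2 values after each gene's own mean was taken off. Nearest to Bmp4 were Chchd7 (0.157) and Tbc1d19 (0.158), and nearest to Bmp6 were Nr6a1 and Kif3c (0.117 each). Nearest to Id2 were Pdia3 (0.184) and Pdk3 (0.210), and nearest to Id3 were Rgs16 (0.111) and Fes (0.118). Another of the 10 genes was not among the nearest pair of any of these 4. No test was made of these similarities.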

How the data were processed

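The members and gene lists were chosen with earlier results of these data known. The values are intensities per probe set, which the authors summarised with RMA per the submitters' processing notes; no version is given, and the deposited intensities are on a linear scale. Log2 was taken of the deposited intensity without a pseudocount. Of 34760 probe sets, the 21640 with exactly 1 gene symbol in the platform annotation were used (1321 had several symbols and 11799 none), and per gene the one with the highest mean was taken. A gene was tested if at least 1 group mean lay above the 30th percentile of these probe sets (intensity 98.9).

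Limma 3.58.1 in R 4.3.3 fitted 4 group means to all 24 arrays (20 residual degrees of freedom), with eBayes and Benjamini-Hochberg adjustment over 14499 genes in each of 5 comparisons, at a threshold of 0.05. The fit was tested on simulated data with 200 genes changed, far fewer than were called under overload here. It recovered 28.4% of log2 changes of 0.2, 63.2% of 0.3, 94% of 0.5 and 99.6% of 1. Of its calls, 5.69% were false. Small differences that did not pass can therefore have been missed. Fold changes are ratios of geometric means, and the number of arrays limits the precision. The labels call the samples biological replicates. No pair of arrays shared more than 0.0201% of its values.

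Named were the 10 genes, Mstn, Fbxo30 and, of each wider list, up to 4 genes called with a fold of at least 1.5, largest first. Bmp2 was named outside this rule, after its values were seen. Alternatives were quantile normalization, arrays shifted to a common median, no filter or one at the 50th percentile, the mean of all probe sets, trended and robust variance, a block for the replicate number, array weights, only the groups compared, a pseudocount of 16 and each array left out. Leaving out the 3 arrays of lowest weight together was chosen after seeing the data.

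Promoter windows came from RefSeq (GRCm38.p6). Those of Id1, Gdf5, Gdf6 and Nog are not used here.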

Additional observations from a re-analysis of the deposited data

Results flagged for a closer look

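Among 40 sets of 6 arrays (10 genes in 4 groups), 1 held an array far from the others, where chance gives about 1 in 20. It was Bmp4 in untreated wildtype muscle, in which replicate 4 had an intensity of 418 and the next lowest array 488, a gap of 0.643 of the group's whole range, above Dixon's 95% critical value. Replicate 4 lay nearest to the overloaded wildtype arrays, the highest of which was 371. Without it the overload difference of Bmp4 in wildtype muscle was -0.66, in place of -0.61 on the log2 scale.

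The overload responses of Id1 in the 2 genotypes differed narrowly past the threshold, by the test of the difference itself. The response in Mstn-/- minus that in wildtype muscle was 0.41 on the log2 scale (adjusted p = 0.0446 in limma). Of all genes tested, 17.4% passed in either direction. Over the alternatives the adjusted p ran from 0.0166 to 0.108. The call was lost without the filter, under quantile normalization, with array weights, with the replicate block and without the 3 arrays of lowest weight. It was also lost when any 1 of 15 of the 24 arrays was left out. The overload difference was positive in both genotypes.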

How the results depend on the processing

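Over the settings other than leaving out 1 array, 500 of 520 results kept their direction and their side of the threshold, 9 lost a call, 11 gained one and 0 reversed; over leaving out each array in turn, 1169 of 1200 did so, 26 lost a call, 5 gained one and 0 reversed. The falls of Bmp4 and Bmp6 and the rises of Id2 and Id3 under overload, and the higher Bmp4 in Mstn-/- muscle, passed under each setting run. The count of members lower under overload in Mstn-/- muscle became 5 after a shift of all arrays to a common median and 2 under quantile normalization and with the replicate block (Bmpr1a lost), and lay between 2 and 3 when single arrays were left out. The count lower in untreated Mstn-/- muscle became 1 with that shift, without a filter and with the filter at the 50th percentile, became 3 without the 3 arrays of lowest weight (Nog joined, adjusted p = 0.0467), and lay between 1 and 2 when single arrays were left out; the stricter filter removes Gdf5 from the test. Under overload, the count higher in Mstn-/- muscle became 2 with array weights and without the 3 arrays of lowest weight (Bmpr1a joined Bmp4), and lay between 1 and 2 when single arrays were left out, the higher count coming without wildtype overload replicate 4 or Mstn-/- overload replicate 4. The count lower in that comparison became 1 with array weights and without the 3 arrays (Nog), and 2 when only the groups compared were fitted (Grem1 with adjusted p = 0.0401 and Id2 with 0.0451). The count of members called with a positive difference between responses (Mstn-/- minus wildtype) became 0 in limma without a filter, with the replicate block and without the 3 arrays. It lay between 0 and 1 when single arrays were left out. As deposited, 3 of 10 had an unadjusted p below 0.05. The share of all genes at that unadjusted threshold was not counted, and it cannot be below the 17.4% called at an adjusted p. The count of called members stayed at 1 under quantile normalization, where Gdf5 passed (adjusted p = 0.0404) and Id1 did not, and with array weights, where Bmpr1a passed (0.0434). Apart from the filter the cause was not tested.

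Replicate numbers did not pair the arrays: deviations of arrays with the same number correlated at 0.016 on average, 9 of 36 pairs exceeded 0.1, and 4 of 24 arrays were most alike to one of their own number. With the replicate block, Bmpr1a under overload in Mstn-/- muscle (adjusted p = 0.0537) and the Id1 difference between responses (0.0544) lost their calls, no other call of a member changed, and calls over all genes numbered 8688 in place of 8789 under overload in Mstn-/- muscle.

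Precision is limited by 6 arrays a group, and by intensities near the filter level for Gdf5, Gdf6 and Grem1.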

Other observations

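Several genes of the wider pathway, chosen here after their values were seen, responded to overload differently in the 2 genotypes by the test of the difference itself. Of all genes tested, 17.4% passed this test in either direction. Of the 11 other receptors and co-receptors 1 passed as higher and 2 as lower. Of the 17 other modulators 2 passed as higher and 5 as lower, and of the 4 myogenic factors 1 passed as lower. The other genes of these lists did not pass. Acvr1, a type I receptor of BMPs, fell 1.23-fold in Mstn-/- muscle (adjusted p = 0.000195) and rose 1.19-fold in wildtype muscle (adjusted p = 0.000965), and the responses differed by -0.56 on the log2 scale (adjusted p = 0.00012). Its lowest, median and highest intensity was 437, 485 and 501 in overloaded and 521, 604 and 625 in untreated Mstn-/- muscle, and 619, 633 and 676 in overloaded and 474, 520.4 and 650.2 in untreated wildtype muscle. Crim1, a membrane protein with Chordin-like repeats, fell 1.79-fold in wildtype muscle (adjusted p = 1.88e-11), whereas its difference in Mstn-/- muscle was -0.11 (adjusted p = 0.138, and 0.0234 after a shift to a common median), and the responses differed by 0.73 (adjusted p = 7.89e-06). Without overload Crim1 was already 1.42-fold lower in Mstn-/- than in wildtype muscle (adjusted p = 2.44e-06). Myod1, the myogenic factor that Id proteins hold back, fell by 0.52 on the log2 scale in Mstn-/- muscle (adjusted p = 3.53e-05) and differed by 0.13 in wildtype muscle (adjusted p = 0.245), with a difference between responses of -0.65 (adjusted p = 0.00137).

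The secreted antagonists Fst, which binds activin, myostatin and some BMPs, and Chrdl1, which is related to Chordin, rose in both genotypes and were lower in Mstn-/- than in wildtype muscle under both conditions. Fst was lower by 0.43 without overload and by 0.46 under overload on the log2 scale (adjusted p = 0.001 and 0.000245). Chrdl1 was lower by 0.50 and 0.61 in the same order (adjusted p = 0.0258 and 0.00391).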
